A study of Mus musculus with 4 samples.

Results

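The genes described here are 10 signalling genes of the IL-6 and IL-1 cytokine families, chosen by symbol: the IL-6 family ligands Il6, Il11, Lif and Osm, the IL-6 family receptor chains Osmr and Il6st, and the IL-1 family genes Il1b, Il1rn, Il33 and Il1rl1. All 10 were found among the 17691 genes of the deposited table. They were followed in whole lung of C57BL/6 wild-type mice, 6 to 8 weeks old. The animals had been given intranasal PBS, a buffer, or intranasal bleomycin, an antitumour agent that breaks DNA and scars the lung, and the labels give 10 days as the time of treatment. Each group is represented by 2 libraries, and no transgene or deletion is named in the labels. The design text speaks of triplicates and the treatment protocol of 4 groups, while 2 groups of 2 were analysed here. The labels do not say that the libraries came from separate animals, so the p-values rest on a spread between libraries that may be technical.

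Cytokines of the IL-6 family bind a ligand-specific receptor chain together with the shared chain gp130, the product of Il6st, and activate Janus kinases and STAT3, which switches on the feedback inhibitor gene Socs3 among others. In the IL-1 family, IL-1 beta (Il1b) and the receptor antagonist (Il1rn) compete for the same receptor, and IL-33 (Il33), stored in nuclei of lung epithelial and stromal cells, signals through the receptor ST2 (Il1rl1) on mast cells, type 2 innate lymphoid cells and regulatory T cells. Both IL-1 receptor systems relay through MyD88 and NF-kB. In lung, IL-11, LIF and oncostatin M (Osm) are known as products of injured tissue and its immune cells that act on fibroblasts and epithelium.

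Bleomycin lungs held more Lif, Il11 and Osmr transcript than PBS lungs, by 9.57, 3.18 and 1.95 times in mean level, while values of the shared receptor gene Il6st overlapped between groups. Il6 was listed higher in both bleomycin libraries but stayed at or under 1.32 FPKM everywhere. The IL-1 family genes Il1rn and Il33 were higher in both bleomycin libraries without passing the test, the bleomycin libraries lying far apart, and Il1b and Il1rl1 overlapped between groups. Of the 8 members abundant enough to be tested, 3 rose, 0 fell and 5 did not pass, against 8.59% of all 12986 tested genes that rose and 7.69% that fell. The test was limma on log2(FPKM + 1), with Benjamini-Hochberg adjustment over all tested genes. Counts of other lists and of cell markers in this fit are to be read against the same shares. Lif and Il11 had mean levels under 1 FPKM with PBS and passed the filter only through their bleomycin values, so the counts over tested members are a description and no support. With no filter both passed (limma adjusted p = 0.0226 for Lif and 0.0474 for Il11). In 7 of the 10 members both bleomycin libraries lay above both PBS libraries, as in 28.2% of all genes in the table. Among the 8 tested members this held for 5, against 31.5% of tested genes, and 66.5% of tested genes were without overlap in either direction. In that fit without a filter 3 of the 10 members passed, all higher, against 8.76% of all genes in either direction.

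The libraries were alike in depth. FPKM is a fragment count scaled to transcript length and library size. The spacing of low values gave an estimated depth of 17000000 to 17800000 fragments per library. That depth was picked from a grid as the one bringing most low values near whole fragments, 75% to 78.1% of them being within 0.15, where 30% is the chance share for a depth not picked this way. Surfactant protein C (Sftpc), which defines alveolar type II cells, stood at 7913 to 12790 FPKM in the 4 libraries. The groups differed in more than the drug. The Y-linked gene Eif2s3y, picked with its values known, had 26.4 and 28.9 FPKM in the PBS libraries but was listed at 0 in both bleomycin libraries, so the sex of the animals and the treatment cannot be told apart. All 8 hepatocyte markers fell with bleomycin, their summed level going from 92.6 and 91.3 FPKM to 9.08 and 8.01 FPKM, and the part of liver RNA in any result here was not tested.

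The promoters of several members share 1 short motif, and the 4 windows that hold it are shown because 2 of them belong to genes that rose. The sequences are the 250 bases before an annotated transcript start, from RefSeq on GRCm38.p6, 5′ to 3′ on the strand of the gene. Of the 10 members, 9 matched that table, with 14 start sites. Capitals mark the AP-1 motif TGANTCA, the binding sequence of Fos and Jun proteins, searched on both strands.
Lif, chr11:4257318-4257567, + strand: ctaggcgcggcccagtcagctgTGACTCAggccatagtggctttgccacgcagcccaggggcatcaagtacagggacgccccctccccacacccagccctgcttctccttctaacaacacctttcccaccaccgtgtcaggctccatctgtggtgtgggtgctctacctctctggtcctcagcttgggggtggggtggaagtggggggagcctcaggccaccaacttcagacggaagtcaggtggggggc
Il11, chr7:4778142-4778391, - strand: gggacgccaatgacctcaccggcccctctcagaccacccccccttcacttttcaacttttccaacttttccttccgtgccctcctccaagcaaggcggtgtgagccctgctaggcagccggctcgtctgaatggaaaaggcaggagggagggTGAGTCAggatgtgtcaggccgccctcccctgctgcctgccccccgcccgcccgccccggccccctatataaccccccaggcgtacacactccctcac
Il6, chr5:30012864-30013113, + strand: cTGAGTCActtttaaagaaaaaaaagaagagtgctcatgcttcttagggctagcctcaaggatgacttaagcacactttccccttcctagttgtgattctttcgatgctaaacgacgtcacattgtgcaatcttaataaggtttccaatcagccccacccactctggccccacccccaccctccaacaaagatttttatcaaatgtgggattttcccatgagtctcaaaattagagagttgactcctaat
Il1rn, chr2:24336610-24336859, + strand: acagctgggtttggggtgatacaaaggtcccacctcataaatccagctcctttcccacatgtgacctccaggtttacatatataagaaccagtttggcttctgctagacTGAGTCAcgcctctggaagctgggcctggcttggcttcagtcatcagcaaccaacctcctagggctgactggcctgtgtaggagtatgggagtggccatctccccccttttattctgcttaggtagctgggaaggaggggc
The motif lay in 4 of the 14 windows and in 4 of the 9 members matched, against 6.75% of all 32851 windows and 7.82% of all 27025 genes. Its first base stood 228 bases before the start in Lif, 98 in Il11 at the second listed start, 249 in Il6 and 141 in Il1rn at the first listed start. An NF-kB motif was found in Lif and Il6 (8.23% of genes), and the windows of Il6st, Osmr, Il1b, Il33 and Il1rl1 held neither. The STAT motif TTCNNNGAA (8.13% of genes) and the cyclic AMP response element TGACGTCA (1.77% of genes) were in none of the members' windows, which says only that these letters are absent there. None of the motifs overlapped another in these windows. A match is a description of the sequence, not of binding.

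Among the ligands, Lif differed most. Lif (gene 16878, GRCm38.p6 chromosome 11, 4257568 to 4272514), whose product signals through LIFR and gp130, was at 0.87 and 0.65 FPKM in the PBS libraries and at 6.43 and 8.11 FPKM in the bleomycin libraries. Both bleomycin libraries stood far above both PBS libraries, and the order of the bleomycin pair was the reverse of that in most members. The mean level went from 0.76 ± 0.156 to 7.27 ± 1.19 FPKM (SD, n = 2), a log2 difference of 2.23 ± 0.16 (SE, limma adjusted p = 0.00616). Il11 (gene 16156, chromosome 7, 4772373 to 4782907), whose product acts on fibroblasts through IL11RA and gp130, was at 0.93 and 1 FPKM with PBS and at 3.61 and 2.53 FPKM with bleomycin. The groups did not overlap, and Il11 rose by 1.04 ± 0.18 on the log2 scale (limma adjusted p = 0.0257). In estimated fragments, PBS values of Lif rest on 42 to 60 fragments and those of Il11 on 16 to 33, depending on the library and on which annotated transcript sets the length.

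Il6 and Osm lay below the filter of a mean of 1 FPKM and were not tested. Il6 (gene 16193, chromosome 5, 30013114 to 30019975), the acute-phase cytokine that names the family, was at 0.16 and 0.10 FPKM with PBS and at 0.64 and 1.32 FPKM with bleomycin. Both bleomycin libraries were higher, the second most. With PBS these levels correspond to an estimated 1 to 3 fragments, so no fold change is given. With no filter on low values, Il6 had a log2 difference of 0.79 ± 0.19 and did not pass (limma adjusted p = 0.0874), and after rescaling to TPM, where it also entered the test, the adjusted p was 0.053. Osm (gene 18413, chromosome 11, 4236785 to 4241026), made by activated macrophages and neutrophils, was at 0.62 and 0.53 FPKM with PBS and at 1.51 and 0.69 FPKM with bleomycin. The second bleomycin library stood just above the PBS libraries, and with no filter Osm did not pass (log2 difference 0.39 ± 0.22, limma adjusted p = 0.318). Osm lies next to Lif, with 16541 bases between the end of Osm and the start of Lif. The neighbours thus differed in size of change, Lif being 9.57 times and Osm 1.91 times higher in mean level, a difference that was not itself tested.

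**Figure D1:**
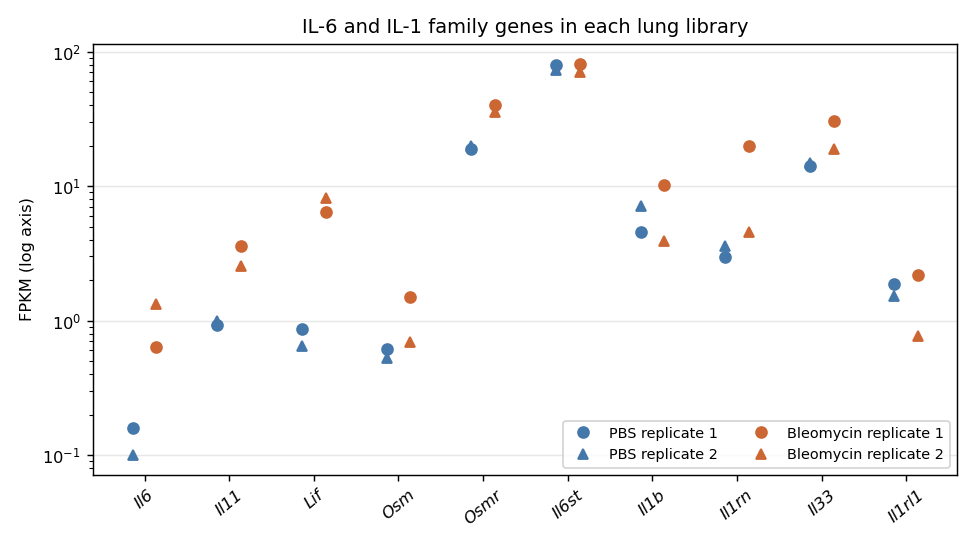
FPKM of the 10 genes (log axis) in each of the 4 lung libraries, PBS in blue and bleomycin in orange, circles for replicate 1 and triangles for replicate 2. In 7 genes both bleomycin points lie above both PBS points, in Il6st, Il1b and Il1rl1 the groups overlap, and the bleomycin points of Il1b, Il1rn and Il1rl1 lie far apart.

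The receptor chains of the IL-6 family parted. Osmr (gene 18414, chromosome 15, 6813568 to 6874968), the oncostatin M receptor chain, was at 19.0 and 20.0 FPKM with PBS and at 40.2 and 35.6 FPKM with bleomycin. Both pairs were tight and did not overlap, and Osmr rose by 0.92 ± 0.09 (SE, limma adjusted p = 0.0102). Il6st (gene 16195, chromosome 13, 112464070 to 112506860), the gene of the shared chain, was at 80.0 and 73.1 FPKM with PBS and at 81.5 and 70.1 FPKM with bleomycin. The PBS values lay inside the range of the bleomycin values. The difference of Il6st was -0.02 with a 95% interval of -0.30 to 0.27 (limma adjusted p = 0.928), and its sign turned with the scaling. Set against Il6st in the same library, the level of Osmr went from 0.238 and 0.273 of that of Il6st with PBS to 0.493 and 0.508 with bleomycin.

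The calls of Lif, Il11 and Osmr need both PBS libraries. Without PBS replicate 1 the limma adjusted p was 0.137 for Lif, 0.235 for Il11 and 0.169 for Osmr, and without PBS replicate 2 it was 0.137, 0.228 and 0.171. The spread then comes from the bleomycin pair alone, and 0 of all genes in the table passed. At an unadjusted p under 0.05, Lif, Il11 and Osmr were higher in each of these fits and the other 5 tested members were not, beside 8.77% and 8.94% of all genes higher. Omitting a bleomycin library had the opposite effect on the whole table: without replicate 1, 17.9% of all genes were called higher and 24.6% lower, and without replicate 2, 18.4% and 15.3%. Every count given for a fit that omits a bleomycin library is to be read against these shares. In each fit that omits a library, shares of all genes are over the genes tested in that fit. The log2 differences themselves stayed between 2.08 and 2.37 for Lif, 0.85 and 1.23 for Il11 and 0.84 and 1.01 for Osmr when any 1 library was left out.

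**Figure D2:**
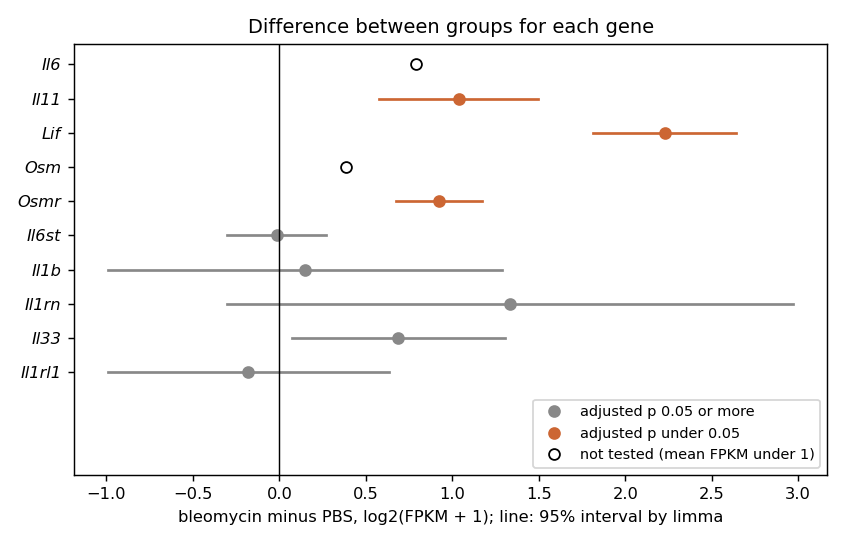
Bleomycin minus PBS on the log2(FPKM + 1) scale for the 10 genes, with 95% intervals by limma where tested. Orange points (Il11, Lif, Osmr) passed at an adjusted p under 0.05, grey ones did not, and open ones (Il6, Osm) were under the filter.

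Other ligand-specific receptor genes of the IL-6 family were lower with bleomycin or overlapped. Il6ra, the IL-6 receptor chain, was at 18.2 and 15.2 FPKM with PBS and at 6.43 and 6.15 FPKM with bleomycin. It fell by 1.27 on the log2 scale (SE 0.12, limma adjusted p = 0.00867), so that Il6ra stood at 0.227 and 0.208 of Il6st with PBS and at 0.0789 and 0.0877 with bleomycin. Il11ra1, the receptor chain for IL-11, was at 58.4 and 69.0 FPKM with PBS and at 39.4 and 23.3 FPKM with bleomycin, and did not pass (-1.04 ± 0.26, limma adjusted p = 0.0591). Lifr, the receptor chain for LIF, was at 15.9 and 16.6 FPKM with PBS and at 11.8 and 7.87 FPKM with bleomycin, and did not pass (-0.70 ± 0.19, limma adjusted p = 0.0728). Of the 5 such genes tested 0 rose and 1 fell, beside 8.59% and 7.69% of all tested genes. Their median log2 difference was -0.96, beside -0.02 over all tested genes. In 4 of the 5 both bleomycin libraries lay below both PBS libraries, as in 35% of tested genes. With quantile normalization 2 of the 5 were called lower, among them Il11ra1 (limma adjusted p = 0.0468), beside 9.09% of all tested genes. With array weights by group, an alternative added after seeing the data, 3 of the 5 were called lower, beside 8.89% of all tested genes. Without a PBS library 0 were, as over all genes. All 5 were called lower without bleomycin replicate 1, where 24.6% of all genes were, and without replicate 2 there were 4 lower and 1 higher, beside 15.3% and 18.4% of all genes. Endothelial markers, 4 of 8 of which fell, and fibroblast markers, 3 of 9 of which fell and 5 of which rose, moved in the same libraries, and their part in these receptor levels was not tested. In bulk tissue, fewer cells of a type and less RNA per cell cannot be told apart.

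**Figure D3:**
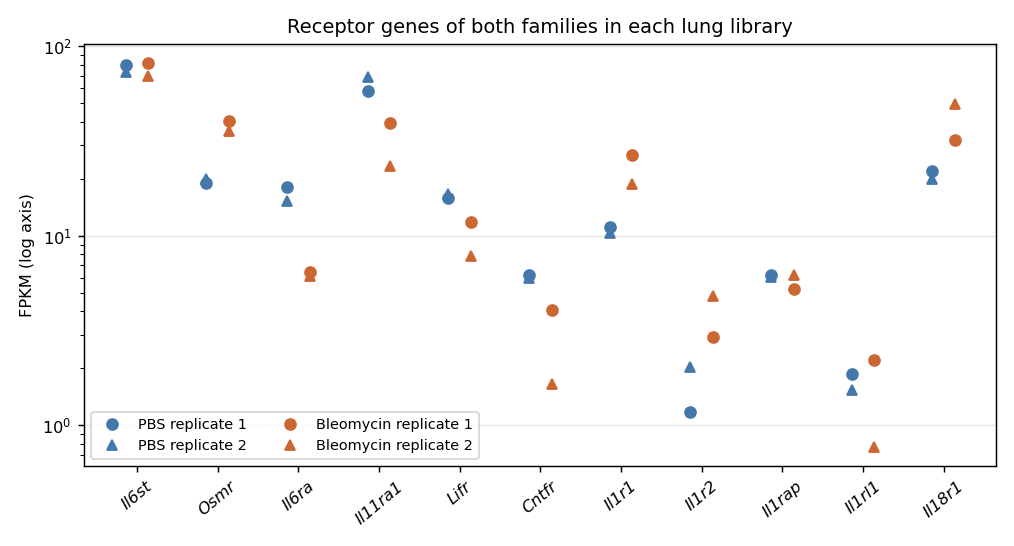
FPKM (log axis) of receptor genes of both families in each library, PBS in blue and bleomycin in orange. In Osmr, Il1r1, Il1r2 and Il18r1 both bleomycin points lie above both PBS points. In Il6ra, Il11ra1, Lifr and Cntfr they lie below, and in Il6st, Il1rap and Il1rl1 the groups overlap. Only Osmr, Il1r1 and Il6ra passed at an adjusted p under 0.05.

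Among the other IL-6 family ligands, Clcf1, the cardiotrophin-like cytokine gene, was at 7.10 and 6.92 FPKM with PBS and at 6.73 and 5.64 FPKM with bleomycin, and did not pass (limma adjusted p = 0.377). Ctf1, cardiotrophin 1, was at 4.26 and 3.45 FPKM with PBS and at 2.92 and 5.24 FPKM with bleomycin, and its groups overlapped (limma adjusted p = 0.941).

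Genes downstream of gp130 rose in part. Socs3, the feedback inhibitor of this receptor chain, was at 10.5 and 9.92 FPKM with PBS and at 46.3 and 40.9 FPKM with bleomycin, a log2 difference of 1.99 ± 0.10 (limma adjusted p = 0.00436). Stat3, the transcription factor itself, went from 50.5 and 48.3 FPKM to 76.7 and 72.6 FPKM and rose by 0.59 ± 0.08 (limma adjusted p = 0.0171). In the relay and its inhibitors 2 of 11 genes rose, none fell (0) and 9 missed the threshold, with a median of 0.12. Over all tested genes 8.59% rose and 7.69% fell, with a median of -0.02. The kinase gene Jak1 was at 49.2 and 51.1 FPKM with PBS and at 50.7 and 45.9 FPKM with bleomycin. The relay had 3 higher and 1 lower calls without bleomycin replicate 1, 5 and 1 without replicate 2, and without a PBS library 0. Socs3 and Stat3 were higher in both bleomycin libraries, as were Lif, Il11 and Osmr. With 2 groups, genes that rise do so in the same libraries, and a link between these genes was not tested.

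Among 12 genes known to be induced through STAT3, though by other routes too, 6 rose, 0 fell and 6 did not pass. Of all tested genes 8.59% rose and 7.69% fell. The median log2 difference was 0.71 in the list and -0.02 over all tested genes. Pim1, Cebpd, Cebpb and Fgl2 overlapped between groups, and Junb and Mcl1 were higher in both bleomycin libraries without passing. Lrg1, which encodes a secreted glycoprotein, went from 29.9 and 35.5 FPKM to 197 and 180 FPKM (2.50 ± 0.12, limma adjusted p = 0.00424). Bcl3, a nuclear cofactor of NF-kB, went from 8.95 and 8.80 FPKM to 33.5 and 31.3 FPKM (1.76 ± 0.08). Il4ra, a receptor chain for IL-4 and IL-13, went from 25.8 and 26.9 FPKM to 70.0 and 57.2 FPKM (1.23 ± 0.12), and the factor gene Batf from 5.31 and 5.18 FPKM to 11.2 and 8.94 FPKM (0.82 ± 0.13, limma adjusted p = 0.0234, and 0.051 with no filter). Icam1 and Fosl2 rose too. Leaving out either PBS library, 0 of the 12 passed, and the 4 genes with values given here stayed higher. There were 7 higher and 1 lower calls without bleomycin replicate 1 (17.9% and 24.6% of all genes), and 11 higher and 0 lower without replicate 2 (18.4% and 15.3%).

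In the IL-1 family the bleomycin libraries disagreed. Il1rn (gene 16181, chromosome 2, 24336860 to 24351491), the receptor antagonist, was at 2.98 and 3.60 FPKM with PBS and at 19.8 and 4.58 FPKM with bleomycin. Both bleomycin libraries were higher, but the first was 4.33 times the second, and Il1rn did not pass (1.33 ± 0.63, 95% interval -0.30 to 2.97, limma adjusted p = 0.204). Il1b (gene 16176, chromosome 2, 129364569 to 129371164), the inflammatory cytokine, was at 4.57 and 7.06 FPKM with PBS and at 10.3 and 3.9 FPKM with bleomycin. The PBS values lay inside the bleomycin range, with a difference of 0.15 and an interval of -0.99 to 1.29 (limma adjusted p = 0.831). An antisense gene, Il1bos, overlaps Il1b, and no statement on strand was found in the sources used here, so reads of the 2 genes cannot be told apart. Without bleomycin replicate 2 the adjusted p was 2.4e-05 for Il1rn (2.28) and 0.0235 for Il1b (0.75). Without bleomycin replicate 1 Il1rn stood at 0.38 (adjusted p = 0.0627) and Il1b at -0.45 (adjusted p = 0.111).

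The antagonist and the agonist were also set against each other within each library. The FPKM of Il1rn was 0.652 and 0.510 times that of Il1b with PBS and 1.93 and 1.17 times with bleomycin. In FPKM, Il1rn was thus below Il1b in both PBS libraries and above it in both bleomycin libraries. Il1rn has 3 listed transcripts of 728 to 2474 bases and Il1b 1 of 1356 bases. Where a ratio stands against 1 may therefore depend on the length used. In bleomycin replicate 2 the estimated fragments were 59 to 202 for Il1rn and 94 for Il1b. The log2 difference between the genes was higher with bleomycin by 1.18, and by 0.83 to 1.53 when any 1 library was left out. This difference was not tested, and the exact permutation test (two-sided) cannot go below p = 0.333 with 2 libraries against 2.

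Il33 (gene 77125, chromosome 19, 29925113 to 29960718), the alarmin of the family, was at 14.2 and 14.9 FPKM with PBS and at 30.7 and 18.7 FPKM with bleomycin. Both bleomycin libraries were above both PBS libraries, 1 of them by little. The difference was 0.69 ± 0.24 with a 95% interval of 0.07 to 1.30 before adjustment, and it did not pass (limma adjusted p = 0.114). Without bleomycin replicate 1 it was 0.35 (adjusted p = 0.0175) and without bleomycin replicate 2 it was 1.03 (adjusted p = 0.00013), the spread then coming from the PBS pair. Alveolar type II markers, the cells that hold much of the Il33 of mouse lung, counted 1 rise and 0 falls among 9 genes, with a median of 0.13. Their summed level was 12640 and 15370 FPKM in the PBS libraries, against 13520 and 10470 FPKM after bleomycin, mostly Sftpc, and thus overlapped between groups.

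Il1rl1 (gene 17082, chromosome 1, 40404864 to 40465418), the IL-33 receptor, was at 1.87 and 1.53 FPKM with PBS and at 2.20 and 0.77 FPKM with bleomycin. The groups overlapped, with a difference of -0.18 and an interval of -0.99 to 0.63 (limma adjusted p = 0.715). Its sign turned with the library left out, being -0.61 (adjusted p = 0.0182) without bleomycin replicate 1 and 0.25 (adjusted p = 0.255) without bleomycin replicate 2. The table gives 1 value per gene for the 3 listed transcripts, so the membrane and the soluble form of the receptor cannot be told apart. Of the mast cell markers, 7 of 8 lay below the filter, and Ms4a2 and Tpsb2 were each listed at 0 in at least 1 library.

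**Figure D4:**
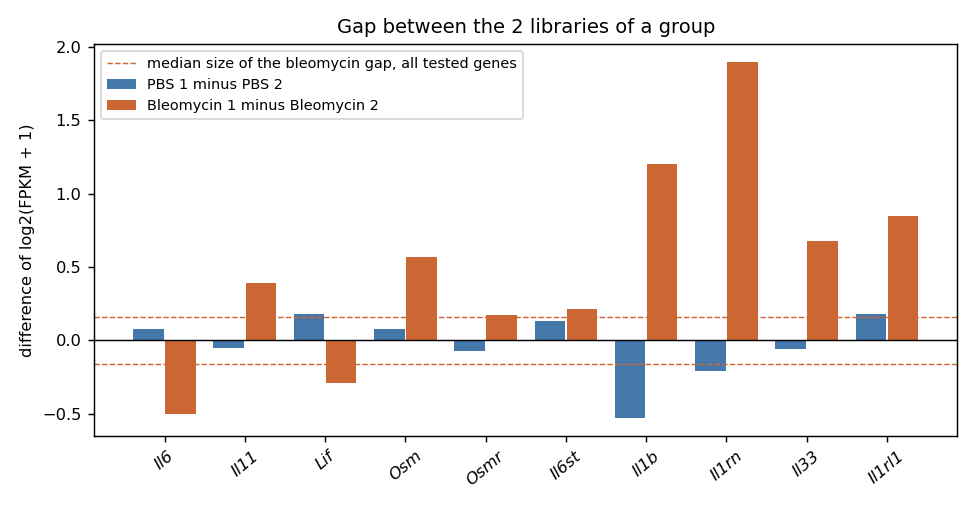
Difference of log2(FPKM + 1) between the 2 libraries of a group, for PBS (blue) and bleomycin (orange), in the 10 genes. The gap with bleomycin is 1.90 for Il1rn and 1.2 for Il1b, against a median size of 0.16 over all tested genes (dashed).

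The gap between the bleomycin libraries was larger than that between the PBS libraries in 10 of 10 members, as in 68% of all tested genes, and bleomycin replicate 1 was the higher in 8 of them, as in 62.3% of tested genes. Lif and Il6 were the exceptions, with gaps of -0.29 and -0.50 (replicate 1 minus replicate 2, log2 scale). The gap of Il1rn, 1.90, was larger than that of 99.7% of tested genes, and that of Il1b, 1.2, larger than that of 98.3%. All 10 members lay beyond the median gap of 0.16, down to Il6st at 0.21 and Osmr at 0.17. All 10 monocyte and macrophage markers were higher in bleomycin replicate 1 than in replicate 2 as well, with summed levels of 5303 and 1804 FPKM, beside 2441 and 3031 FPKM with PBS. Markers of resident alveolar macrophages summed the other way, to 573 FPKM in bleomycin replicate 1 and 1292 FPKM in replicate 2, mostly through Chil3 (315.6 and 1050 FPKM), although 5 of the 7 were higher in replicate 1. Of the monocyte and macrophage markers 5 rose, 0 fell and 5 did not pass, and their sums are mostly Lyz2. Neutrophil markers counted 0 rises and 4 falls among 10, and their summed level went from 478 and 600 FPKM to 225 and 170 FPKM. Whether any of these cell types has a part in the levels of Il1b, Il1rn and Osm was not tested.

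Other genes of the IL-1 system comprised receptors, ligands and binding proteins. Il1r1, the signalling receptor for IL-1, was at 11.1 and 10.4 FPKM with PBS and at 26.5 and 18.8 FPKM with bleomycin, and rose by 0.99 ± 0.18 (limma adjusted p = 0.0287, and 0.061 with no filter). Besides Il1r1, 6 of the 7 receptor genes missed the threshold and 0 fell. Over all tested genes 8.59% rose and 7.69% fell. At an unadjusted p under 0.05 by limma, 4 of the 7 receptor genes were higher and 1 lower, beside 17.2% and 18.1% of tested genes. Omitting bleomycin replicate 1 gave 3 higher and 1 lower receptor genes, and omitting replicate 2 gave 2 higher. Il18r1, the IL-18 receptor, was at 22.02 and 19.87 FPKM with PBS and at 31.9 and 49.8 FPKM with bleomycin (0.90 ± 0.22, limma adjusted p = 0.0573). Sigirr, an inhibitory receptor, was at 16.5 and 15.7 FPKM with PBS and at 13.6 and 11.6 FPKM with bleomycin (-0.33 ± 0.11, adjusted p = 0.104). Among 4 other ligands and binding proteins 0 passed by limma, with 1 higher at an unadjusted p under 0.05, as were 17.2% of tested genes. Il18 was at 13.0 and 12.5 FPKM with PBS and at 13.2 and 13.5 FPKM with bleomycin, and its binding protein gene Il18bp at 6.01 and 6.32 FPKM with PBS and at 11.8 and 7.74 FPKM with bleomycin. Symbols of 4 further IL-36 and IL-38 type ligands and of Il31 were not matched in the table and are not analysed here.

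In the relay from MyD88 to NF-kB 5 of 17 genes rose, 12 missed the threshold and 0 fell, with a median of 0.11. Of all tested genes 8.59% rose and 7.69% fell, with a median of -0.02. Both bleomycin libraries lay above both PBS libraries in 7 of the 17 and below in 4, beside 31.5% and 35% of tested genes. Relb and Nfkb2, the subunit genes of the alternative NF-kB dimer, went from 9.38 and 9.19 FPKM to 18.9 and 15.5 FPKM (0.82 ± 0.12, limma adjusted p = 0.0192) and from 15.3 and 14.7 FPKM to 28.8 and 24.5 FPKM (0.78 ± 0.11, adjusted p = 0.0171). The subunit genes Rela and Nfkb1 overlapped between groups (0.01 and -0.03, limma adjusted p = 0.956 and 0.9). Nfkbia, an inhibitor gene, was lower in both bleomycin libraries without passing (-0.38 ± 0.15, limma adjusted p = 0.155). Myd88, the adaptor gene, went from 22.5 and 23.9 FPKM to 37.8 and 32.1 FPKM (0.57 ± 0.11, limma adjusted p = 0.0333). Tnfaip3, an inhibitor of the relay, went from 5.21 and 5.96 FPKM to 7.88 and 8.84 FPKM at the edge of the threshold (0.51 ± 0.12, adjusted p = 0.0498), and the call was lost in 10 of 15 alternatives. With no filter 2 of the 17 rose and 0 fell, beside 4.58% and 4.18% of all genes. Without a PBS library 0 passed, as over all genes.

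Of 7 tested inflammasome and processing genes 0 passed by limma. Before adjustment 2 were higher and 0 lower at p under 0.05, beside 17.2% and 18.1% of tested genes. Without bleomycin replicate 1 there were 2 higher and 1 lower calls (17.9% and 24.6% of all genes), and without replicate 2 there were 5 higher (18.4% of all genes). Gsdmd, the pore-forming gasdermin gene, was at 26.1 and 27.8 FPKM with PBS and at 27.0 and 20.0 FPKM with bleomycin, and Casp8 at 18.5 and 16.1 FPKM with PBS and at 24.5 and 21.8 FPKM with bleomycin (limma adjusted p = 0.0757). Nlrp3, the sensor gene, which lies outside the naming rule, was at 1.11 and 1.26 FPKM with PBS and at 2.07 and 1.23 FPKM with bleomycin.

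Among genes of type 2 responses and of cells that answer IL-33, 2 of 7 rose, 1 fell and 4 did not pass. Over all tested genes 8.59% rose and 7.69% fell. Without bleomycin replicate 1 the calls were 1 higher and 3 lower, without replicate 2 they were 4 and 1, and without a PBS library 0 passed. Areg, an epidermal growth factor family ligand, was at 2.07 and 2.65 FPKM with PBS and at 20.0 and 8.09 FPKM with bleomycin (2.05 ± 0.41, limma adjusted p = 0.0372, and 0.0778 with no filter). Foxp3, the factor that defines regulatory T cells, went from 0.40 and 0.34 FPKM to 1.94 and 1.40 FPKM (0.96 ± 0.17, adjusted p = 0.0284), while Rora fell from 7.92 and 7.68 FPKM to 4.48 and 4.63 FPKM (-0.66 ± 0.10, adjusted p = 0.0188). Foxp3 was tested only because its bleomycin values lift its mean past the filter. The cytokine genes Il4, Il5 and Il13 stood at or under 0.25 FPKM in every library, and Il4 and Il13 were each listed at 0 in 1 library of either group.

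**Figure D5:**
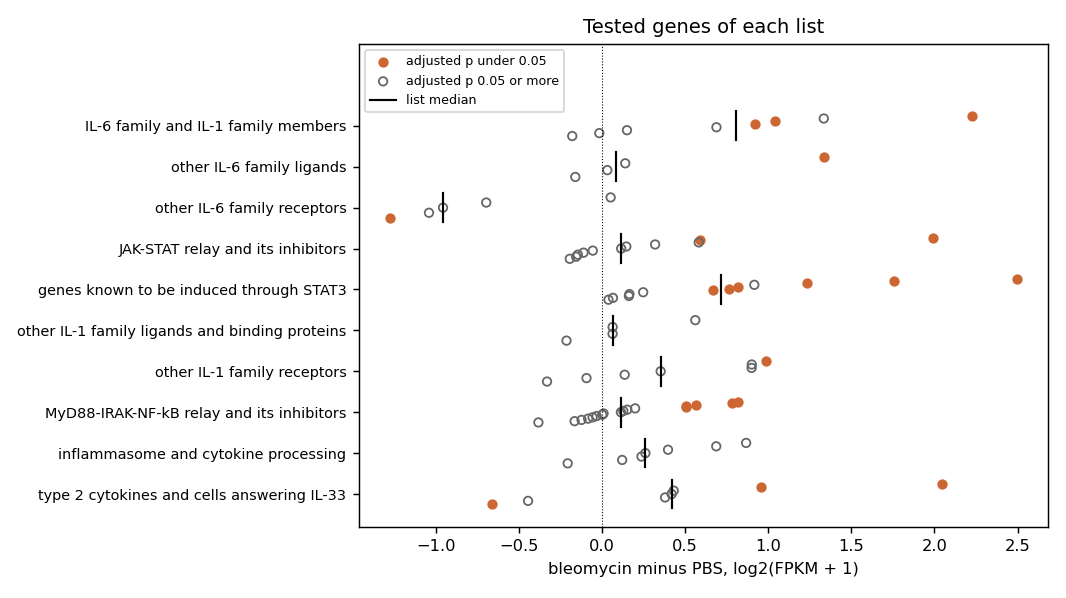
Bleomycin minus PBS on the log2(FPKM + 1) scale for each tested gene of the members' list and of 9 related lists, orange where the adjusted p was under 0.05 and open otherwise, with the list median as a bar. The median is 0.71 for genes known to be induced through STAT3 and -0.96 for the other IL-6 family receptors, beside -0.02 over all tested genes.

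Ordered by level per transcript length, Il6st stood highest in both groups, followed by Osmr and Il33, and Il6 lowest. With PBS all neighbours in that order were apart in their library values. With bleomycin Lif moved from place 8 to place 5, at a mean of 7.27 FPKM, and its values overlapped those of its neighbours Il1rn and Il1b (12.2 and 7.09 FPKM). The values of Il33 and Il1rn, of Il1rl1 and Osm, and of Osm and Il6 also overlapped with bleomycin.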

How the data were processed

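RNA from whole lung was sequenced in 4 libraries, 2 per group. Titles of the samples gave group and replicate number. The deposited values are FPKM by gene, to 2 decimals, in 1 table, per the file headers. The submitters' processing notes name Bowtie2, HISAT, mm10 and GRCm38. Which tool quantified genes, and tool versions, is not given in the sources used here. Because FPKM divides by the library total, very abundant genes lower the others.

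Of 17692 rows, 1 lacked a name and was dropped, and 27 symbols listed as dates were restored. The 12986 genes averaging 1 FPKM or more were tested two-sided by limma 3.58.1 (R 4.3.3, trended eBayes) after log2(FPKM + 1), with Benjamini-Hochberg adjustment over all of them and a threshold of 0.05. Differences on this scale understate the change of low genes. The design has 2 residual degrees of freedom. The functions were tested on simulated data, with equal spread in both groups and changes placed only in more abundant genes. Calls of low genes such as Lif and Il11, and the unequal spread of these groups, were not covered. Depth was estimated on single-transcript genes of 300 to 1000 bases, and fragment numbers of members follow from it and from GENCODE transcript lengths. Positions are from RefSeq, GRCm38.p6.

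The 10 members and the related lists were chosen with earlier results of these data known, and lists were matched by exact symbol. All members are named. Other lists name at most 4 called genes, by size of difference, and, if under 2 were called, also the 2 most abundant. Others named lie outside the rule. One gene that the rule names is not reported here. Alternatives were a filter at 5 FPKM or none, pseudocounts of 0.5 and 0.1, scaling by TPM, upper quartile or quantiles, robust or untrended eBayes, the replicate number as a block, omission of each library, and, added after seeing the data, array weights by group. No count model was applied, the values not being counts. Python 3.11.15 with pandas 2.3.3 and numpy 2.4.6 prepared the tables.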

Additional observations from a re-analysis of the deposited data

How the results depend on the processing

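Over 11 alternatives that kept all libraries, Lif, Il11 and Osmr passed wherever they were tested, Lif and Il11 falling under the filter at 5 FPKM. That filter left 5 members tested and 1 called, beside 17.3% of all 9549 genes tested with it, so the count is a description only. Leaving out 1 library gave 0 to 6 called members and 0 to 43 called genes in the related lists, against 3 and 19. Of all genes 42.5% were called without bleomycin replicate 1 and 33.7% without replicate 2, against 16.3% with all libraries and 0% without either PBS library. Without a PBS library the spread rests on the bleomycin pair, and without a bleomycin library on the PBS pair, which lies closer together (median SD 0.0637 against 0.115). With no filter the related lists held 11 called genes of 83 tested, beside 8.76% of all genes, against 16.3% with the filter. At an unadjusted p under 0.05 by limma there were 28 rather than 30, and the cause was not tested. Of all genes 14.6% were higher and 15.6% lower at that p with no filter, against 17.2% and 18.1% with it. Il6st changed sign to 0.05 with TPM and 0.02 with upper quartile scaling, and the cause was not tested. The median over all tested genes changed sign too, from -0.0236 to 0.0353 with TPM and 0.0119 with upper quartile scaling. Leaving out 1 library gave -0.12 to 0.09 for Il6st, -0.45 to 0.75 for Il1b, -0.61 to 0.25 for Il1rl1 and -0.30 to 0.37 for Ctf1.

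Replicate numbers do not come with a stated pairing, and same-numbered libraries deviated together with a correlation of 0.0231 over 12986 genes. With the replicate block 3 members and 17 genes of the related lists were called, beside 12.6% of all tested genes, against 16.3% in the main fit. Myd88 and Tnfaip3 no longer passed with the block (adjusted p = 0.0577 and 0.0583 by limma).

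The log2 difference of Il6 moved with the pseudocount, from 0.79 to 1.19 at 0.5 and 2.17 at 0.1, and to 1.25 with TPM, and that of Osm from 0.39 to 0.74 at a pseudocount of 0.1, with an estimated 1 to 3 fragments of Il6 and 21 to 24 of Osm in the PBS libraries.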
